A study of Mus musculus with 9 samples.

Results

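The 9 genes described here encode the opioid and tachykinin peptides of the mouse striatum and their receptors. They are the peptide precursors Penk, Pdyn, Tac1 and Tac2, the opioid receptors Oprm1, Oprd1 and Oprk1, and the tachykinin receptors Tacr1 and Tacr3. A probe set belonged to the set when its single gene symbol in the platform annotation was one of these names. Each gene had 1 such probe set, 9 of the 28815 probe sets on the array, and all 9 lay above the filter on low values. Total RNA from striatum was hybridised to 9 single-colour arrays, 3 for each of 3 groups of mice. Acute MPTP was given as 4 intraperitoneal doses of 20 mg/kg at 2 h spacing, with striatum taken 1 week later. Chronic MPTP was a daily dose of 4 mg/kg over 20 days, with striatum taken 8 weeks later. Saline in 4 doses, likewise at 2 h spacing and with a 1 week wait, served as the control. The total MPTP dose was 80 mg/kg in both treated groups. Chronic MPTP differed from the other groups in regimen and in sampling time together, and the effects of these cannot be told apart. The labels give no strain, sex or age. They do not say that the arrays came from different animals, and p-values here refer to the spread between arrays, which may be technical. Since a dissected tissue was measured, fewer cells of a type and less RNA per cell cannot be told apart.

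MPTP is converted in the brain to a toxin that dopamine neurons take up through their own transporter. The axons of those neurons end on the projection neurons of the striatum, which use GABA together with neuropeptides. Projection neurons of the indirect pathway, which carry the D2 dopamine receptor, make enkephalin from the Penk precursor. Those of the direct pathway, which carry the D1 receptor, make substance P from Tac1 and dynorphin from Pdyn. Opioid receptors couple to inhibitory G proteins, and tachykinin receptors couple to Gq and raise intracellular calcium. In rodents, loss of dopamine input is known from the literature to raise Penk and to lower Tac1 messenger RNA in the striatum. The design asks how the striatal transcriptome differs between saline and the acute or chronic regimen.

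Levels are log2 intensities as deposited, so a difference of 1 is a doubling of signal, and levels of different probe sets are not compared with each other. Array medians ran from 6.85 to 6.90. Defining markers of the striatum were high: Ppp1r1b, which encodes the phosphatase inhibitor DARPP-32 of projection neurons, lay between 11.44 and 12.31 on the 9 arrays, and Drd1 between 10.01 and 11.12. Genes of neighbouring tissue also varied. The mean of 11 cortical neuron genes, each centred on its own average, ran from -0.42 to 1.12 in controls, from -0.50 to 0.94 in acute and from -0.69 to -0.38 in chronic arrays. The same mean over 12 genes of thalamus, septum and hypothalamus ran from -0.44 to 1.35, from -0.68 to 0.71 and from -0.61 to 0.12. Control 1, acute 1 and acute 2 were the 3 arrays highest in the cortical genes, and control 3 and acute 3 were the highest in the choroid plexus gene Ttr, at 12.56 and 13.37. The mean of 16 projection neuron genes ran from -0.50 to 0.14 in controls, from -0.0053 to 0.08 in acute and from 0.14 to 0.30 in chronic arrays.

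None of the 9 genes passed the test, a Benjamini-Hochberg adjusted p under 0.05 in limma over all probe sets tested, in any of the 3 comparisons. The lowest unadjusted p were those of Tacr1 and Tac1 after chronic MPTP, 1.59-fold and 1.49-fold above the controls (adjusted p = 0.9 and 0.918 in limma). Penk, at 1.17-fold, and Oprd1, at 1.39-fold, came next by unadjusted p in that comparison. The lowest adjusted p of the 9 genes in this limma fit, 0.873, was shared by Penk, Tac1, Oprk1, Tacr1 and Tacr3 in chronic against acute MPTP. Their unadjusted limma p there ran from 0.102 to 0.21, above those of Tacr1 and Tac1 in chronic against control. The largest differences in size belonged to Tac2, which was 2.09-fold lower after acute and 2.01-fold lower after chronic MPTP, but its 9 arrays spanned more than that. After acute MPTP the other 8 genes differed from the controls by at most 1.30-fold.

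**Figure D1:**
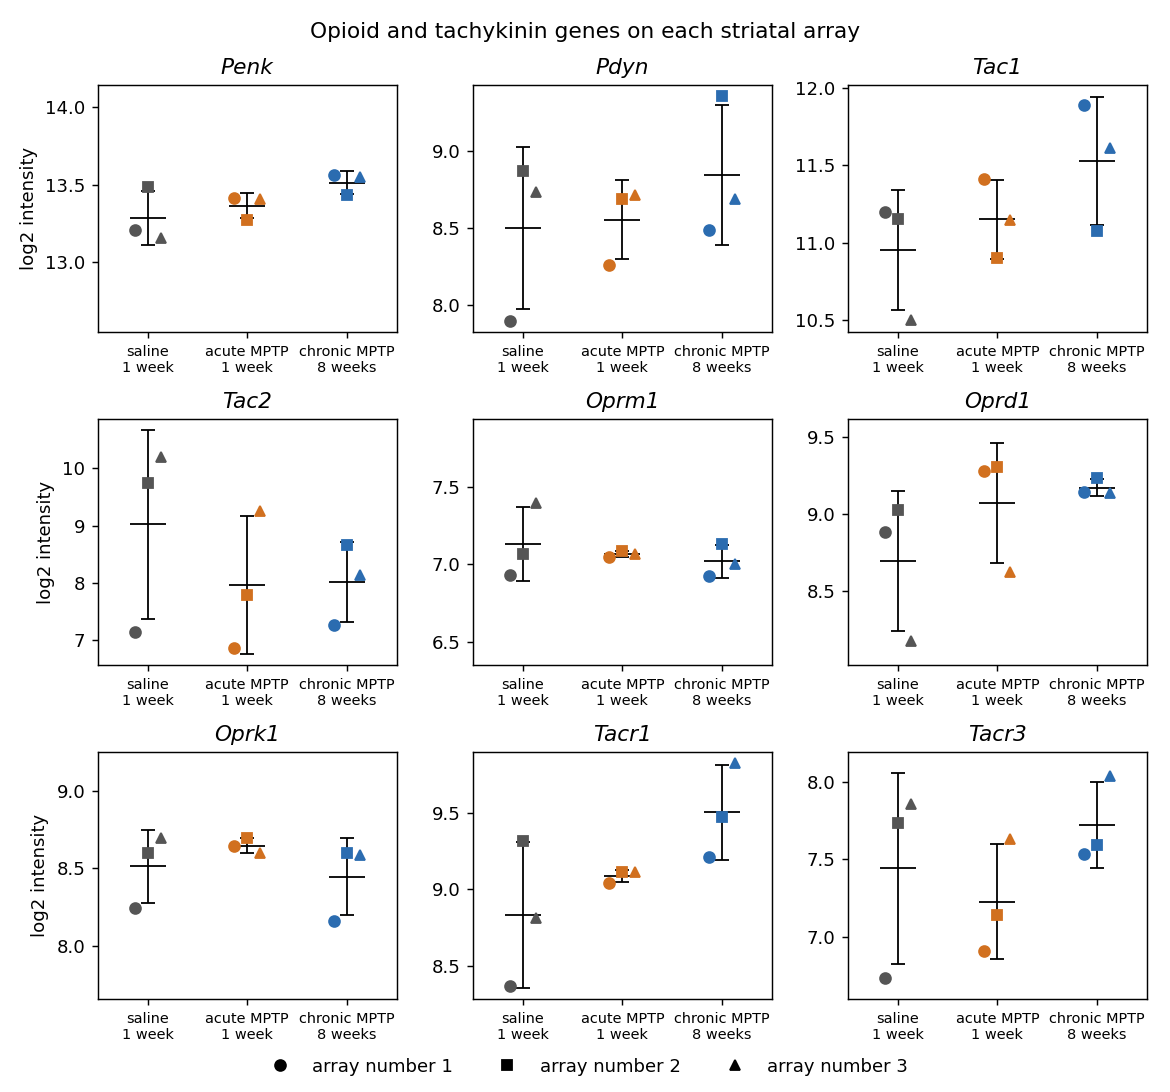
Log2 intensity (vertical axes, which differ between panels) of the 9 genes on each array, by group; the symbol shape gives the replicate number, the short line the group mean and the bar 1 SD (n = 3). All 3 chronic arrays lie above all 3 controls for Oprd1, and the arrays of each group overlap those of the controls for the other genes.

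Penk encodes preproenkephalin, the precursor of the enkephalins, ligands of the delta and mu opioid receptors. It lay at 13.21, 13.48 and 13.16 in the controls, at 13.42, 13.27 and 13.41 after acute MPTP and at 13.56, 13.43 and 13.55 after chronic MPTP. The chronic arrays were all above the acute arrays, while control 2 lay between the chronic values. The log2 difference was 0.08 ± 0.10 (SE) for acute against control, 0.23 ± 0.10 for chronic against control and 0.15 ± 0.10 for chronic against acute MPTP. Adjusted p in limma was 1, 0.929 and 0.873, and the exact permutation p, two-sided, was 0.6, 0.2 and 0.1. With 3 arrays against 3 that test cannot go below 0.1. Penk spread little: its SD within the groups was between 0.07 and 0.18. Its mean level, 13.39, lay near the array maxima, which ran from 14.07 to 14.43. Whether signal so near the top of the scale was compressed was not tested. Drd2, the receptor of the same indirect-pathway neurons, was 0.76 ± 0.16 higher in chronic arrays than in controls (adjusted p = 0.9 in limma).

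Pdyn encodes prodynorphin, the precursor of the dynorphins, which act on the kappa opioid receptor. Its level was 7.90, 8.87 and 8.73 in the controls, 8.25, 8.69 and 8.71 after acute MPTP and 8.48, 9.35 and 8.69 after chronic MPTP. The groups overlapped throughout, and array 1 was the lowest of its group in each of the 3 groups. The log2 difference was 0.05 ± 0.29 for acute against control, 0.34 ± 0.29 for chronic against control and 0.29 ± 0.29 for chronic against acute MPTP (exact permutation p = 1, 0.6 and 0.6). The 95% interval of chronic against control, -0.31 to 1.002, covers no change as well as a doubling.

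Tac1 encodes the precursor of substance P and neurokinin A. It lay at 11.20, 11.15 and 10.50 in the controls, at 11.41, 10.90 and 11.15 after acute MPTP and at 11.89, 11.08 and 11.61 after chronic MPTP. Chronic 1 and chronic 3 were above every other array, and chronic 2 lay within the range of the controls. The group means were 10.95 ± 0.39 (SD, n = 3), 11.15 ± 0.25 and 11.53 ± 0.41. Chronic against control was 0.58 ± 0.25 (95% interval 0.02 to 1.14, exact permutation p = 0.3), acute against control 0.20 ± 0.25 (0.7) and chronic against acute 0.38 ± 0.25 (0.3). Without control 3, the lowest array, chronic against control was 0.35 and acute against control turned to -0.02. Control 3 and chronic 2, each the lowest of its group in Tac1, had the highest means of the ventral striatum gene list, 0.69 and 0.76, and control 3 had the highest mean of the thalamus, septum and hypothalamus list, 1.35. The acute group did not follow: acute 2 was lowest in Tac1, with a ventral striatum mean of 0.06 beside 0.30 on acute 3. Control 2 came next in that list, at 0.44, with Tac1 at 11.15. These lists were set beside Tac1 after the values were seen.

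The sequence before the start site of Tac1 and of its receptor Tacr1 is shown because they had the 2 highest positive log2 fold changes of the 9 genes after chronic MPTP against controls, ligand and receptor. The sequences are from RefSeq (GRCm38.p6, plus strand, 250 bases before the annotated start), and capitals mark TGACG or its reverse complement CGTCA, the core letters of the cyclic AMP response element to which CREB binds.
Tac1, chr6:7554811-7555060: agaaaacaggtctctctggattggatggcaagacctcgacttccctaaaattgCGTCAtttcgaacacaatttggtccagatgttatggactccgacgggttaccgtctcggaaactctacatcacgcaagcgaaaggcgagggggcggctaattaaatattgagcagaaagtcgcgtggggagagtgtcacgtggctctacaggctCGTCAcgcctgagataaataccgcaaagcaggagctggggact
Tacr1, chr6:82402225-82402474: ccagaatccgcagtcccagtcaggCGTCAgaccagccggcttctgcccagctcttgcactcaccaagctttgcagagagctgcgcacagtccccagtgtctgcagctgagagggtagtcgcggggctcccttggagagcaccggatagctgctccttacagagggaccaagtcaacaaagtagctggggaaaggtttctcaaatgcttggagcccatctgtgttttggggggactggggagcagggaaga
The core letters begin 197 and 43 bases before the start in Tac1 and 226 bases before it in Tacr1. Tacr3 holds 1 match, 58 bases before its start, and the windows of Pdyn, Tac2, Oprm1 and Oprd1 hold none. Over all 32851 windows of this length 17.8% hold the core on either strand. The full element TGACGTCA, which contains the core and is held by 1.55% of windows, and the AP-1 letters TGANTCA, held by 6.75%, were in none of the 10 windows of these 7 genes. The promoters of Penk and Oprk1 were not searched here. A match of letters is a description and does not show binding.

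Tac2 encodes the precursor of neurokinin B, the main ligand of the receptor made from Tacr3. It was by far the most variable of the 9 genes, with an SD of 1.20 over all arrays, larger than that of 99.9% of the probe sets tested. Its level was 7.13, 9.74 and 10.20 in the controls, 6.85, 7.78 and 9.25 after acute MPTP and 7.26, 8.65 and 8.14 after chronic MPTP. Within each group array 1 was the lowest, and the span within the controls exceeded 3 on the log2 scale. The log2 difference was -1.07 ± 0.83 for acute against control, -1.01 ± 0.83 for chronic against control and 0.06 ± 0.83 for chronic against acute MPTP (exact permutation p = 0.4, 0.4 and 1). The 95% interval of chronic against control ran from -2.89 to 0.87.

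The level of Tac2 ran alongside those of several genes that are typical of tissue next to the dorsal striatum. Gal, the precursor of galanin, a peptide of hypothalamus and basal forebrain, had the same order over the 9 arrays (Spearman's rho = 1). The level of Slc17a6, which loads vesicles with glutamate in thalamic and hypothalamic neurons, was 10.59 on control 3 and 9.43 on acute 3, both arrays with high Tac2. Slc17a6 lay lower, at 7.66 on control 2, where Tac2 was also high, and at 6.42 on chronic 2. Of 7 genes of habenula and hypothalamic peptide neurons, Pou4f1 and Pmch lay between 4.97 and 5.38, under the filter on low values, and the other 5 passed it. Hcrt and Gpr151 lay between 6.12 and 6.51, Chrnb4 between 6.51 and 6.96 and Avp between 6.90 and 7.53. Oxt, the oxytocin precursor, lay at 9.32 on control 3, the array with the highest Tac2, and between 7.14 and 7.91 on the other 8 arrays. Dlk1, a gene enriched in ventral parts of the striatum, lay at 9.497 or above on control 2, control 3, acute 2, acute 3 and chronic 2 and at 8.39 or below on the other 4 arrays. The mean of 4 genes of dopamine terminals, among them Th and Slc18a2, also followed Tac2 (r = 0.94 over the 9 arrays), at 0.45 on control 3, 0.25 on chronic 2 and 0.20 on control 2 and -0.39 on acute 1. Slc6a3 of the same list lay at 6.74 on control 3 but at 6.29 on acute 3, where Tac2 was also high. Gal and this list are named for their likeness to Tac2 in these same values. Apart from the covariate fits given further on, the part of these genes in the differences of Tac2 was not tested.

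**Figure D2:**
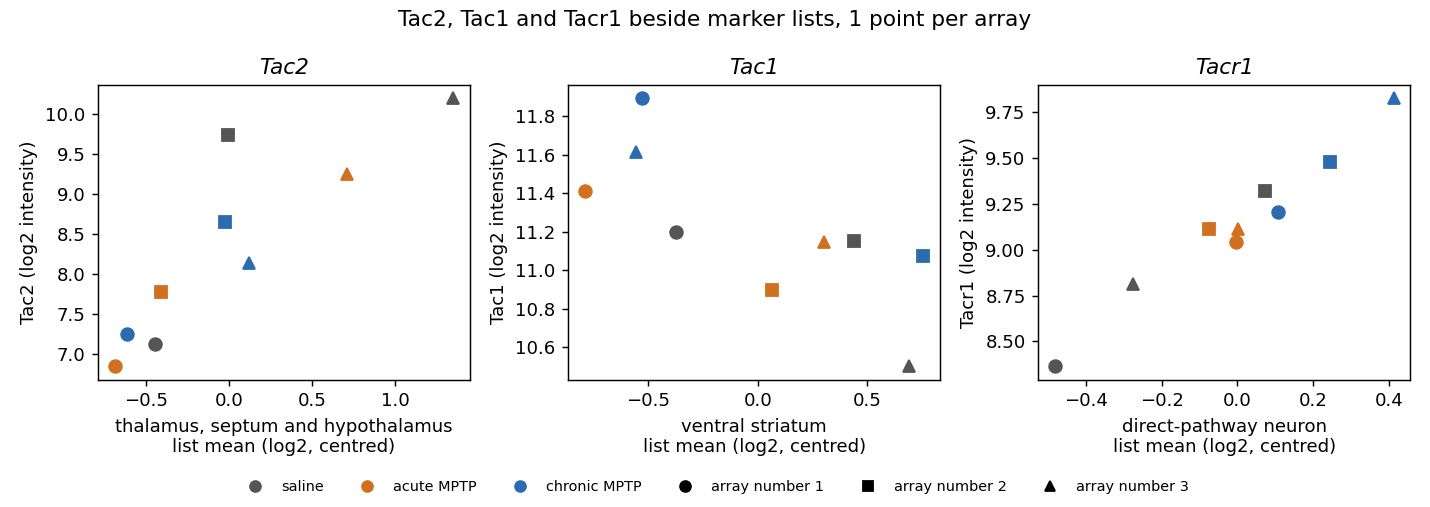
Log2 intensity of Tac2, Tac1 and Tacr1 (vertical axes) against the mean of a marker list on the same array (horizontal axes, log2, each gene centred on its average), 1 point per array, colour for the group and shape for the replicate number. The pairings were chosen after the values were seen. Tac2 is highest where the thalamus, septum and hypothalamus list reaches 1.35, and the 3 arrays lowest in Tac2 are the 3 lowest in that list. Tacr1 is lowest on control 1 and highest on chronic 3, as is the direct-pathway list. The indirect-pathway list, not drawn here, is also lowest on control 1 and highest on chronic 3.

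The opioid receptors differed among themselves in their order of group means. Oprd1, the delta receptor and a main target of enkephalin, lay at 8.88, 9.03 and 8.18 in the controls, at 9.28, 9.30 and 8.62 after acute MPTP and at 9.14, 9.23 and 9.13 after chronic MPTP. All chronic arrays were above all controls and acute 3 lay below control 1 and control 2. The chronic arrays were tight (SD 0.05) and the controls spread (SD 0.45). Against controls the log2 fold change was 0.37 ± 0.24 after acute MPTP (exact permutation p = 0.4) and 0.47 ± 0.24 after chronic MPTP (exact permutation p = 0.1, the smallest possible), and it was 0.10 ± 0.24 for chronic against acute MPTP (exact permutation p = 1). Without control 3 these were 0.12, 0.22 and 0.10.

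Oprm1 encodes the mu receptor, which marks the striosome compartment of the striatum. It was nearly level, with 6.93, 7.07 and 7.40 in the controls, 7.05, 7.09 and 7.07 after acute MPTP and 6.92, 7.13 and 7.003 after chronic MPTP. Control 3 stood above the other arrays, and the log2 fold changes were -0.07 ± 0.12 for acute against control, -0.11 ± 0.12 for chronic against control and -0.05 ± 0.12 for chronic against acute MPTP. The 95% intervals ran from -0.34 to 0.21, from -0.38 to 0.16 and from -0.32 to 0.23. The other 7 striosome genes measured had a median of 0.07 after acute and 0.14 after chronic MPTP against controls, and 0 of them passed; Kremen1 had the smallest p, at 0.37 ± 0.17 for chronic against control.

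Oprk1 encodes the kappa receptor, the target of dynorphin. It lay at 8.25, 8.60 and 8.70 in the controls, at 8.65, 8.70 and 8.60 after acute MPTP and at 8.16, 8.60 and 8.59 after chronic MPTP. The chronic arrays were all below the acute arrays, the closest pair differing by less than 0.01, and control 1 and chronic 1 were the lowest of all. The log2 difference was 0.13 ± 0.15 for acute against control, -0.07 ± 0.15 for chronic against control and -0.20 ± 0.15 for chronic against acute MPTP (exact permutation p = 0.6, 0.6 and 0.1).

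Tacr1 encodes the NK1 receptor of substance P, carried in the striatum mainly by cholinergic and somatostatin interneurons. It lay at 8.36, 9.32 and 8.81 in the controls, at 9.04, 9.11 and 9.11 after acute MPTP and at 9.21, 9.48 and 9.83 after chronic MPTP. The chronic arrays were all above the acute arrays, control 2 lay above chronic 1, and control 1 was the lowest of all. The values deposited for acute 2 and acute 3 were identical, so the small SD of the acute group (0.04) rests on 2 different numbers. Equal values were not particular to Tacr1. Pdyn had 8.69 on acute 2 and chronic 3, and Oprk1 8.60 on control 2 and chronic 2. Among other genes, Ppp1r1b had 12.11 on all 3 acute arrays, and Mme 9.06 on control 2, acute 2 and acute 3. Chronic against control was 0.67 ± 0.23 (95% interval 0.16 to 1.19, unadjusted p = 0.0163 and adjusted p = 0.9 in limma, exact permutation p = 0.2). Chronic against acute was 0.42 ± 0.23 (exact permutation p = 0.1) and acute against control 0.26 ± 0.23 (exact permutation p = 0.4). The group means were 8.83 ± 0.48 (SD, n = 3) in controls, 9.09 ± 0.04 after acute and 9.50 ± 0.31 after chronic MPTP. Leaving out control 1 gave 0.44 for chronic against control and 0.02 for acute against control, and leaving out control 2 gave 0.92 and 0.50. Chat, the acetylcholine synthesis enzyme of cholinergic interneurons, was 0.58 ± 0.21 higher in chronic arrays than in controls, and Slc5a7, their choline transporter, 0.77 ± 0.28 higher; neither passed (adjusted p = 0.9 in limma for both). Of the 8 interneuron genes 4 had a higher and 4 a lower mean in chronic arrays than in controls, and 0 passed. Sst, the somatostatin precursor, was -0.02 ± 0.19, Npy, made by the same interneurons, -0.05 ± 0.15, Pvalb -0.47 ± 0.73 and Calb2 -1.40 ± 0.94. The remaining genes with a higher mean were Nos1, at 0.28 ± 0.23, and Slc18a3, at 0.35 ± 0.25. Of the 18 gene lists, the mean of the direct-pathway genes was the one most like Tacr1 (r = 0.98 over the 9 arrays, a pairing chosen after the values were seen). The indirect-pathway list (r = 0.94) and the list of genes shared by projection neurons (0.88) came next. The interneuron list was at 0.52. The direct-pathway mean was -0.48, 0.07 and -0.28 in the controls, -0.0030, -0.08 and 0.0029 after acute MPTP and 0.11, 0.24 and 0.41 after chronic MPTP. Control 1 was thus lowest and chronic 3 highest in both.

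Tacr3 encodes the NK3 receptor of neurokinin B. It lay at 6.73, 7.73 and 7.86 in the controls, at 6.91, 7.14 and 7.63 after acute MPTP and at 7.53, 7.59 and 8.04 after chronic MPTP. The groups overlapped, and the 3 arrays high in cortical genes, control 1, acute 1 and acute 2, were the 3 lowest in Tacr3. The log2 difference was -0.22 ± 0.30 for acute against control, 0.28 ± 0.30 for chronic against control and 0.50 ± 0.30 for chronic against acute MPTP (exact permutation p = 0.7, 0.7 and 0.3). Without the 3 arrays high in cortical genes chronic against control was -0.08 and chronic against acute 0.09. Acute 3 was then the only acute array left.

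The counts of the 9 genes stand here beside those of all probe sets. The p-values counted are from the fit without a replicate block. After acute MPTP 0 of 9 had groups that did not overlap, against 3.64% of the 17480 probe sets tested, and 0 of 9 had an unadjusted p under 0.05, against 0.932%. For chronic against control 1 of 9 (11.1%) did not overlap, Oprd1, against 6.32%, and 2 of 9 had an unadjusted p under 0.05, Tac1 and Tacr1, against 5.38%. For chronic against acute MPTP 3 of 9 (33.3%) did not overlap, Penk and Tacr1 higher and Oprk1 lower, against 8.49%, and 0 of 9 had an unadjusted p under 0.05, against 5.11%. At the adjusted threshold limma called 0 probe sets in acute against control, 0 in chronic against control and 2 in chronic against acute MPTP, 0.0114% of those tested. These were Nr4a1 and Arc, immediate early genes outside the set, named here after their values were seen. The median log2 fold change of the 9 genes was 0.08, 0.28 and 0.15 in the 3 comparisons, beside 0.0057, -0.01 and -0.02 over all probe sets. Their log2 fold change was above 0 for 6, 6 and 7 of the 9, beside 52.6%, 46.6% and 45.1% of all probe sets. The median size of the difference, whatever its sign, was 0.20, 0.34 and 0.20, beside 0.07, 0.09 and 0.10. The standard error ran from 0.23 to 0.83 for Pdyn, Tac1, Tac2, Oprd1, Tacr1 and Tacr3 and from 0.10 to 0.15 for the others. Its median over all probe sets was 0.12. Whether the larger median size of these genes goes beyond their wider spread was not tested. The 3 comparisons share arrays, so they are not independent of each other.

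**Figure D3:**
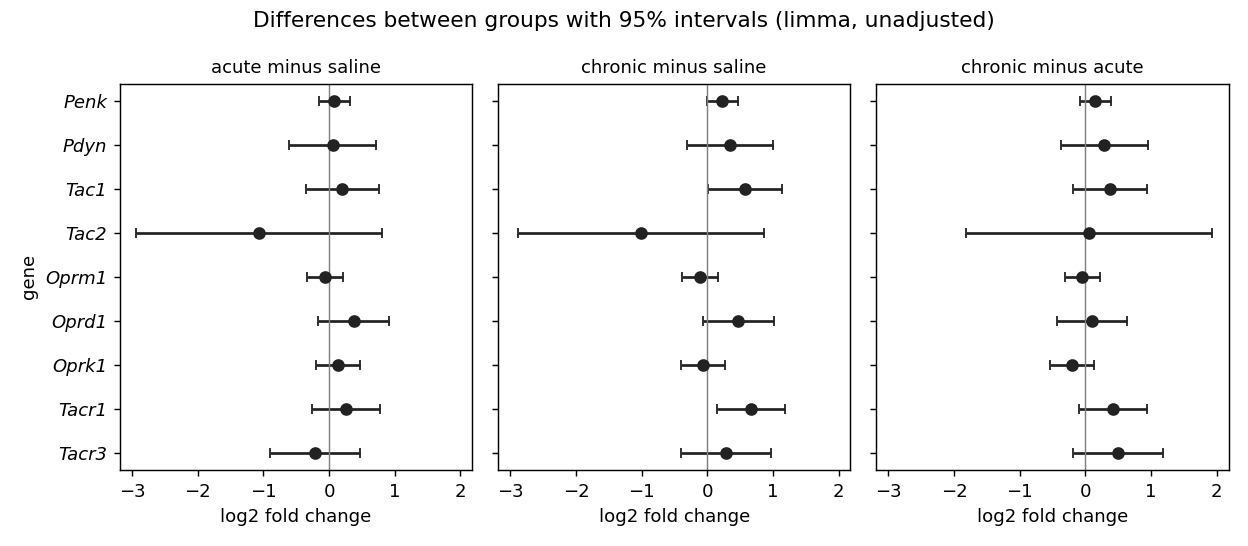
Log2 fold change (horizontal axes) of the 9 genes in the 3 comparisons, from limma over all 9 arrays; bars are 95% intervals, not adjusted for the number of probe sets. The intervals of Tac1 (0.02 to 1.14) and Tacr1 (0.16 to 1.19) in chronic minus saline are the 2 that do not include 0, and that of Tac2 is the widest in each panel.

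Arrays with the same replicate number deviated together, so each gene was also followed within the numbers. Oprd1 was higher than the control of its number on 3 of 3 acute arrays, by 0.40, 0.28 and 0.44, and on 3 of 3 chronic arrays, by 0.26, 0.21 and 0.96. Tacr1 was higher on 3 of 3 chronic arrays, by 0.85, 0.16 and 1.01, and on 2 of 3 acute arrays. Tac1 was higher on 2 of 3 chronic arrays, by 0.69 and 1.11 for numbers 1 and 3, and the difference was -0.08 for number 2. Penk followed the same division, with 0.35 and 0.39 for numbers 1 and 3 and -0.05 for number 2. Against the acute array of the same number, Penk was higher on each chronic array by 0.14, 0.16 and 0.14, Tac1 by 0.48, 0.18 and 0.47, Tacr1 by 0.17, 0.36 and 0.71 and Tacr3 by 0.63, 0.46 and 0.41. Oprk1 was lower on each, with differences of -0.49, -0.10 and -0.01. Tac2 was lower on 3 of 3 acute arrays, with differences of -0.28, -1.96 and -0.95. With the replicate number as a block 0 of the 27 differences of these genes passed. The smallest adjusted p in limma was 0.262, for Tacr1 in chronic against control. With the block, chronic against control had an unadjusted limma p under 0.05 for Tacr1 (0.00548), Oprd1 (0.0127), Tac1 (0.0185), Tac2 (0.0432) and Pdyn (0.0491). Acute against control had such a p for Tac2 (0.0351) and Oprd1 (0.0356), and chronic against acute for Tacr3 (0.0161) and Tacr1 (0.0473). Of all 17480 probe sets tested, 2214, 748 and 2394 had such a p in these comparisons, in that order. The standard error of Tac2 was 0.42 with the block.

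Several differences between chronic MPTP and controls were smaller in fits that take in the marker genes of the tissue. With the means of the cortex list and of the thalamus, septum and hypothalamus list as covariates, Tacr1 went from 0.67 to 0.29 ± 0.29, Tac1 from 0.58 to 0.09 ± 0.28 and Oprd1 from 0.47 to 0.19 ± 0.21, and Penk turned to -0.03 ± 0.12. With the mean of the projection neuron list as the covariate Tacr1 was 0.08 ± 0.25, Oprd1 0.0029 ± 0.32, Penk 0.01 ± 0.13 and Pdyn -0.0019 ± 0.44, while Tac1 was 0.33 ± 0.38. Tac2 kept a lower mean in the chronic arrays, at -1.32 ± 0.53 with the tissue covariates and -1.53 ± 1.33 with the projection neuron covariate. For acute against control, the tissue covariates took Tac2 from -1.07 ± 0.83 to -0.48 ± 0.36, nearer to no change. None of these passed (adjusted p = 1 in limma), and the covariate fits left 4 and 5 residual degrees of freedom. The covariates themselves differed between groups. The projection neuron mean ran from 0.14 to 0.30 in chronic arrays, from -0.50 to 0.14 in controls and from -0.0053 to 0.08 in acute arrays. The cortex mean ran from -0.69 to -0.38 in chronic arrays and from -0.42 to 1.12 in controls. Either covariate fit can therefore take out part of any group difference.

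**Figure D4:**
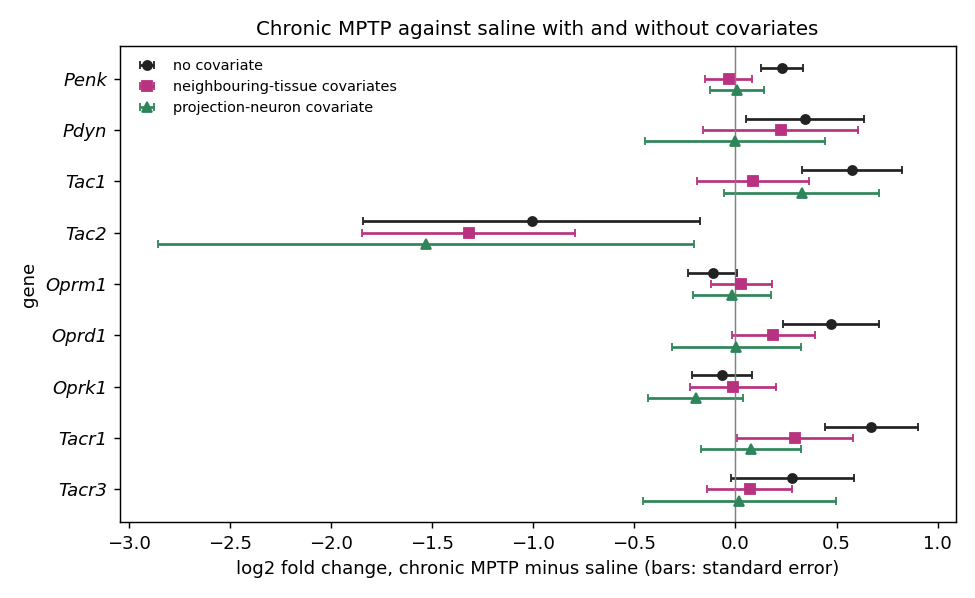
Log2 fold change of the 9 genes for chronic MPTP minus saline (horizontal axis, bars 1 SE) with no covariate (black circles), with the cortex and the thalamus, septum and hypothalamus list means as covariates (magenta squares) and with the projection neuron list mean as the covariate (green triangles). Penk, Tac1, Oprd1 and Tacr1 lie nearer to 0 with either covariate, and Tac2 lies farther from it.

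The other genes of the 2 peptide systems were taken from lists of further peptides and receptors, processing and degrading enzymes and signalling proteins. Of 22 peptide, receptor, processing and degradation genes tested, 0 passed in any comparison, and their median was 0.0044 for acute against control, -0.0042 for chronic against control and 0.02 for chronic against acute MPTP. Mme, the enkephalin-degrading peptidase neprilysin, had the highest value against the controls, 0.72 ± 0.39 after acute and 0.92 ± 0.39 after chronic MPTP. Oprl1, the receptor of nociceptin, had the lowest, -0.31 ± 0.21 and -0.47 ± 0.21. Cpe, the carboxypeptidase that trims peptide precursors, was -0.19 ± 0.08 and Dpp3, a peptidase that cleaves enkephalins, -0.23 ± 0.09 in chronic arrays against controls (adjusted p = 0.918 in limma for both).

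Of 20 genes through which opioid receptors act, 0 passed, with 13 below and 7 above the controls both after acute MPTP (median -0.05) and after chronic MPTP (median -0.08). Kcnj9, a subunit of the potassium channels opened by opioid receptors, was -0.55 ± 0.18, Gnai1, an inhibitory G protein subunit, -0.34 ± 0.13 and Rgs9, which speeds the turn-off of G proteins in the striatum, 0.61 ± 0.22 in chronic arrays against controls. Grk5, a receptor kinase, was -0.29 ± 0.11 in acute arrays against controls. Of 11 genes of the Gq pathway through which tachykinin receptors act, 0 passed, and the median was 0.02, 0.12 and 0.09 in the 3 comparisons. Rgs2, an inhibitor of Gq, had the smallest p of these lists, with 0.41 ± 0.10 for chronic against control and 0.59 ± 0.10 for chronic against acute MPTP (adjusted p = 0.605 in limma). Plcb1, a phospholipase activated by Gq, was 0.35 ± 0.15 in chronic arrays against controls.

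The neurons that make the peptides were followed through markers outside the set. Of 7 direct-pathway genes tested 7 had a higher mean in chronic arrays than in controls (median 0.59), and of 6 indirect-pathway genes 6 (median 0.48), with 0 passing in either list. Drd1 was 0.59 ± 0.16 and Slc35d3 0.80 ± 0.22 higher, beside 0.58 for Tac1 and 0.34 for Pdyn of the same neurons. Among indirect-pathway genes Drd2 was 0.76 ± 0.16 and Gpr52 0.74 ± 0.24 higher, beside 0.23 for Penk. The level of Penk lay near the array maxima. After acute MPTP the medians were 0.31 and 0.19. Of 16 genes shared by both kinds of projection neuron 16 had a higher mean in chronic arrays than in controls (median 0.50), 13 with an unadjusted p under 0.05 and 0 passing. Their mean level was low on control 1 and control 3, at -0.42 and -0.50, and stood at 0.14 on control 2. Slc6a3, the dopamine transporter, was -0.27 ± 0.10 and Th, the dopamine synthesis enzyme, -0.21 ± 0.39 in acute arrays against controls, and -0.09 ± 0.10 and 0.17 ± 0.39 in chronic arrays. Slc18a2, the vesicular monoamine transporter, was -0.29 ± 0.27 and -0.55 ± 0.27, and Ddc, which makes dopamine from its precursor, -0.26 ± 0.23 and -0.12 ± 0.23. All 4 genes had a lower mean after acute MPTP and 3 of 4 after chronic MPTP, and 0 passed. The cell bodies of dopamine neurons lie in the midbrain, which was not sampled.

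Over the 9 arrays the probe sets most like each gene were named by Pearson's r, as a description of these arrays. Passed over were numbered Gm, LOC, Vmn and Olfr genes and symbols with a hyphen, an inner capital or a leading digit. Those of Penk were Nt5e (r = 0.96), Ranbp17 (0.96) and Pdpk1 (0.95), and those of Tac1 were Stk17b (0.98), Strn (0.97) and Alcam (0.97). For Pdyn they were Spata13 (0.99), Mideas (0.98) and Prob1 (0.98), and for Tac2 Stk32b (0.98), Gal (0.98) and Inpp1 (0.98). For Oprd1 they were Arhgef2 (0.97), Tesc (0.97) and Cacnb2 (0.96), for Oprm1 Ctdp1 (0.96), Trim45 (0.96) and Mrgpre (0.95) and for Oprk1 Cnppd1 (0.96), Ltbr (0.96) and Cenpo (0.93). For Tacr1 they were Arel1 (0.99), Htr1d (0.98) and Adamts3 (0.97), and for Tacr3 Hspbap1 (0.99), Creb3l2 (0.97) and Lrrtm4 (0.96). Spearman's rho for these pairs was lowest for Oprk1 with Cnppd1 (0.49) and Cenpo (0.71) and for Oprm1 with Ctdp1 (0.72). None of the 9 genes was among the 3 closest to another. Tac1 and Pdyn, both products of direct-pathway neurons, did not share an order over the arrays: Tac1 was highest on chronic 1, where Pdyn was among the 3 lowest, and Pdyn was highest on chronic 2, where Tac1 was among the 3 lowest.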

How the data were processed

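The authors deposited log2 intensities of summarised probe sets from single-colour arrays; per the labels' protocols, biotinylated cDNA was made from 200 ng of RNA. Background correction, normalization and summary are not given in the sources used here, and the log2 scale was read from the values, so they were used as deposited. Of 28815 probe sets 21780 had 1 gene symbol, 1605 several and 5430 none. Those with 1 symbol whose average log2 level reached the 25th percentile of all probe sets (5.63) were tested, 17480 in number. All 9 gene identifiers were found in the RefSeq table (GRCm38.p6), with 0 symbols changed.

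All 9 arrays entered 1 fit of group means in limma 3.58.1 (R 4.3.3); p-values are two-sided, adjusted by Benjamini-Hochberg across everything tested, and were held against 0.05; the code was tested on simulated data. Errors beside fold changes are standard errors. The number of arrays limits the precision. Genes named from the lists are up to 4 with the smallest p in each, with Th, Slc6a3, Drd1, Drd2, Slc17a6 and Ttr beside a result. Ppp1r1b, Dlk1, Pmch, Pou4f1, Avp, Sst, Pvalb, Nos1 and Slc18a3 fall outside that rule and were chosen after their values were seen. Those most like a gene are the 3 with the highest r among symbols of the form described with them. The genes, lists and alternatives were chosen with earlier results of these data known. Deviations from group means correlated between same-numbered arrays in all 9 pairs (r from 0.15 to 0.67) and ran from -0.60 to 0.18 in the 18 other pairs, so the numbers count as pairing the arrays, from the values and not from the labels. At most 6.34% of values were identical between 2 arrays.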

Additional observations from a re-analysis of the deposited data

How the results depend on the processing

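Each of the 27 differences was recomputed under 21 alternatives, and 0 passed the threshold in any of them; 16 of the 27 changed sign under at least 1. With array weights the acute against control value of Pdyn was -0.10. With the cortex and the thalamus, septum and hypothalamus covariates, acute against control was 0.0066 for Oprm1, chronic against control -0.034 for Penk and 0.028 for Oprm1, and chronic against acute -0.087 for Penk, -0.84 for Tac2, 0.022 for Oprm1, -0.0011 for Oprd1 and -0.0020 for Tacr1. With the projection neuron covariate, acute against control was -0.056 for Penk, -0.16 for Pdyn and -0.11 for Tacr1, chronic against control -0.0019 for Pdyn, and chronic against acute -0.14 for Tac2 and -0.081 for Oprd1. Without the 3 arrays highest in cortical genes, acute 3 was the only acute array left. Acute against control was then -0.087 for Pdyn and -0.049 for Oprk1, chronic against control -0.075 for Tacr3 and chronic against acute -1.23 for Tac2. Without the 2 arrays highest in Ttr, acute against control was -0.0032 for Penk, -0.022 for Tac1 and 0.066 for Oprm1, chronic against control 0.020 for Oprm1 and 0.024 for Oprk1, and chronic against acute -0.12 for Oprd1. Leaving out 1 array at a time gave acute against control ranges of -0.25 to 0.24 for Pdyn, -0.025 to 0.33 for Tac1, -0.17 to 0.067 for Oprm1 and -0.00040 to 0.23 for Oprk1. It gave chronic against control ranges of -0.21 to 0.020 for Oprm1, -0.20 to 0.078 for Oprk1 and -0.075 to 0.49 for Tacr3, and chronic against acute ranges of -0.50 to 0.70 for Tac2, -0.10 to 0.0018 for Oprm1 and -0.12 to 0.22 for Oprd1. The cause of these changes was not tested.

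The number of probe sets passing was 0, 0 and 2 for acute against control, chronic against control and chronic against acute MPTP. It was 1, 0 and 1 with only the 2 groups compared in the fit. For chronic against acute it was 1 without a filter on low values and 1 with the projection neuron covariate. It was 0 with the tissue covariates and without the 2 arrays highest in Ttr. Leaving out 1 array at a time gave 0 to 1, 0 to 2 and 1 to 5, the highest each time without chronic 1. With the replicate block it was 0, 0 and 2, and the block changed no call; chronic against control for Tacr1 then had an adjusted p of 0.262 in limma. With 3 arrays a group and without the block, the median standard error of a difference was 0.12, and that of Tac2 0.83.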
